A study of Mus musculus with 10 samples.

Results

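In all, 10 genes for RNA-binding proteins that steer alternative splicing in muscle were followed in RNA-sequencing of C2C12 cells, a mouse myoblast line that fuses into myotubes when serum is withdrawn. The genes were taken by symbol from the deposited table, which lists 55359 genes. They were the muscleblind family (*Mbnl1*, *Mbnl2*, *Mbnl3*), the CELF family members *Celf1* and *Celf2*, the RBFOX family members *Rbfox1* and *Rbfox2*, and *Rbm24*, *Rbm20* and *Ptbp1*. All 10 passed the filter on low values, a mean of at least 0.5 FPKM over the 10 libraries, that left 13548 genes for testing. The cells had been grown in 20% FBS, transfected with 100 nM of either a control siRNA (si-Control, 5 libraries) or an siRNA against *Fndc1*, a gene for a secreted protein with fibronectin type III domains (si-*Fndc1*, 5 libraries), and kept for 4 days in 2% horse serum. All 10 libraries therefore came from transfected, differentiating cells of a single line, and no untransfected or undifferentiated sample was compared. The labels do not say whether the 5 libraries of a group came from separate cultures, so the p-values measure the spread between these libraries, which may be technical. The question put to the data was whether the level of each regulator, and the balance between related regulators, differed between the 2 groups.

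Muscle cells include or skip many exons in a set order as they differentiate, and a few RNA-binding proteins set that order. MBNL proteins favour the adult exon pattern, and in myotonic dystrophy they are trapped on expanded CUG repeats. CELF proteins act on many of the same exons in the opposite direction, RBFOX proteins promote or repress an exon according to whether they bind downstream or upstream of it, RBM24 promotes muscle exons, RBM20 represses exons of titin, and PTBP1 represses muscle exons in undifferentiated cells.

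The libraries held 66771605 to 75995168 counts in si-Control, and in si-*Fndc1* from 56332844, in replicate 5, to 72839369. *Fndc1*, the targeted gene, averaged 27.8 ± 2.04 FPKM in si-Control and 20.9 ± 1.70 FPKM in si-*Fndc1* (mean ± SD, n = 5 each), a log2 fold change of -0.40 with no overlap between the groups (-0.22 after correction for GC content and length, edgeR adjusted p = 0.0104). FPKM scales the fragments of a gene by its length and by the depth of the library. Of 13 myotube markers, all passed the filter, and their summed level ran from 13282 to 14368 CPM (counts scaled to a common library total) in si-Control and from 13536 to 15317 in si-*Fndc1*. Of 20 liver markers, 20 had a higher mean in si-*Fndc1*, with a summed level of 0.803 to 18.3 CPM in si-Control against 119 to 411 in si-*Fndc1*, at most 0.0411% of a library. The part of these transcripts in the results below was not tested. Leaving the list out of the fit changed no call on the 10 regulators. That step leaves the regulators' own counts as they are, so it cannot show the part of these transcripts. In these bulk libraries, fewer cells of a type and less RNA per cell cannot be told apart.

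In si-Control, the 10 regulators spanned levels from 0.625 to 30.3 FPKM. *Rbm24* stood highest at 30.3 ± 2.74 FPKM (mean ± SD, n = 5), followed by *Rbfox2* at 27.7 ± 14.1, *Ptbp1* at 19.2 ± 0.769 and *Celf1* at 17.6 ± 1.37 FPKM. The ranges of neighbouring genes in this order overlapped from *Rbm24* through to *Celf1*. *Rbm20* followed at 14.1 ± 0.738 FPKM, and *Mbnl2* at 12.1 ± 0.325 and *Mbnl1* at 11.1 ± 3.09 FPKM overlapped each other. *Celf2* lay lower, at 4.46 ± 0.252 FPKM, and *Rbfox1* at 0.800 ± 0.122 and *Mbnl3* at 0.625 ± 0.0453 FPKM were lowest and also overlapped. The order of the MBNL genes depended on the gene length behind the FPKM. The length implied by the deposited counts and FPKM was 20.8 kb for *Mbnl1* and 28.8 kb for *Celf2*, against longest coding transcripts of 5.58 and 8.88 kb in GENCODE vM1. On the length of the longest coding transcript, *Mbnl1* moved from rank 7 to rank 1 and *Mbnl2* from rank 6 to rank 4. The length is the same for a gene in every library, so this scaling by length cancels in the fold changes.

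**Figure D1:**
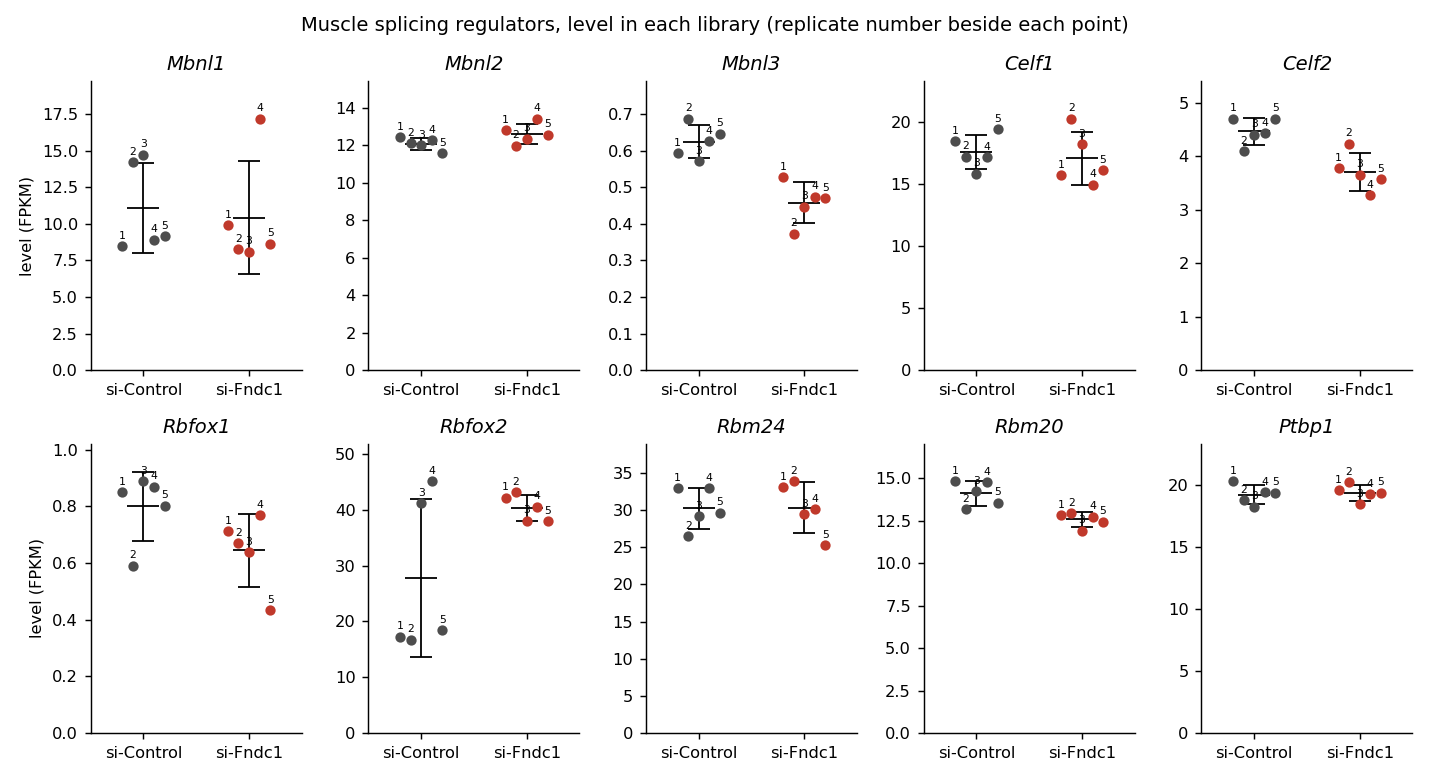
Level of each of the 10 splicing regulators in each library (y axis, FPKM from 0, on a separate scale per gene) in si-Control (grey) and si-*Fndc1* (red), with the replicate number beside each point and the mean ± SD as bars (n = 5 per group). The groups do not overlap for *Mbnl3* and *Rbm20*, and *Rbfox2* and *Mbnl1* fall at high and low levels within a group.

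Knockdown of *Fndc1* was accompanied by lower levels of 3 of the 10 regulators. *Mbnl3*, *Celf2* and *Rbm20* fell, with log2 fold changes of -0.44, -0.26 and -0.16, and none of the 10 rose past the threshold (adjusted p under 0.05 in the quasi-likelihood test of edgeR, with Benjamini-Hochberg adjustment over all genes tested). Of all genes tested, 34.4% were called, 17.3% as higher and 17.2% as lower, so the share of the regulators called, 30%, was close to that of the table as a whole. The groups did not overlap for *Mbnl3* and *Rbm20*, 2 of 10 genes, against 25.1% of all genes tested. The median log2 fold change was -0.06 over the 10 regulators and 0.00 over all genes tested. The 3 that fell did not share a family, and each of *Mbnl3* and *Celf2* had a more abundant relative whose level did not pass the test.

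**Figure D2:**
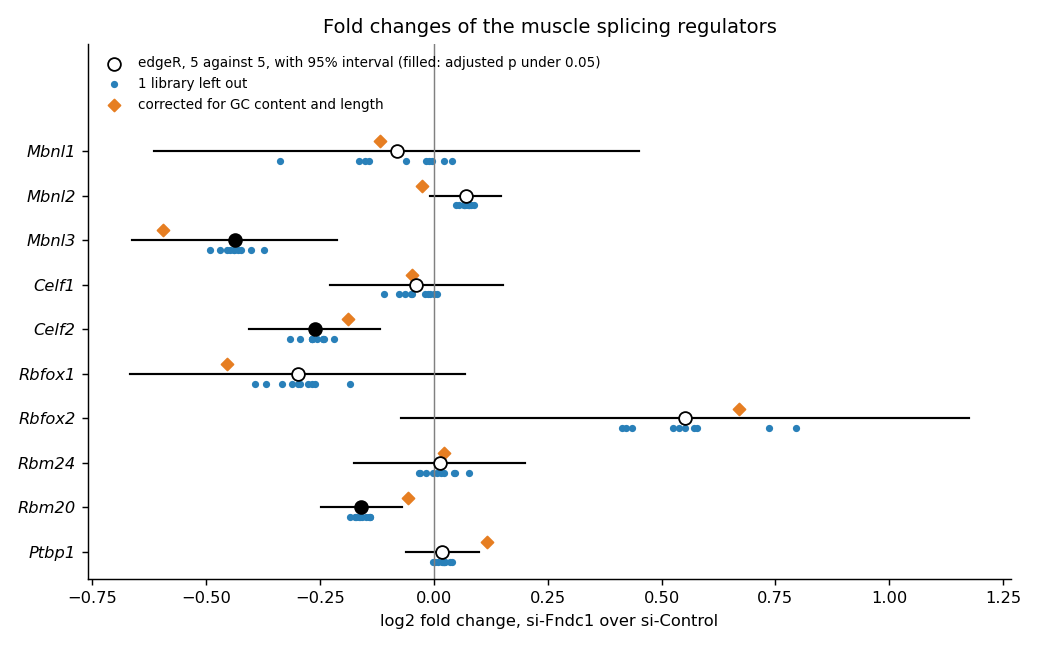
Log2 fold change of each splicing regulator, si-*Fndc1* over si-Control (x axis), from edgeR with its 95% interval (circles, filled where the adjusted p is under 0.05), with 1 library left out at a time (blue points) and after correction for GC content and length (orange diamonds). *Mbnl3* and *Celf2* stay below 0 in all of them, the estimate for *Rbm20* shrinks from -0.16 to -0.06 after the correction, and the interval for *Rbfox2* is the widest.

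Of the muscleblind genes, only *Mbnl3* passed the test. *Mbnl3* (ENSMUSG00000036109, chrX:50206146-50294709, minus strand, coordinates here and below as the deposited table gives them, for which the processing notes list GRCm39), whose protein is known mainly from proliferating precursors and the placenta and is held to oppose myoblast differentiation, was measured at 0.593, 0.688, 0.572, 0.627 and 0.647 FPKM in si-Control replicates 1 to 5. In si-*Fndc1* replicates 1 to 5 it was measured at 0.527, 0.373, 0.447, 0.474 and 0.470 FPKM. Every si-*Fndc1* library thus lay below every si-Control library, with replicate 2 the lowest. The mean was 0.625 ± 0.0453 FPKM in si-Control and 0.458 ± 0.0559 FPKM in si-*Fndc1* (SD, n = 5 each), and the log2 fold change was -0.44 (SE 0.10, 95% interval -0.66 to -0.21, edgeR adjusted p = 0.00699). *Mbnl3* is a low transcript, and these values rest on 397 to 479 counts per library in si-Control against 257 to 365 in si-*Fndc1*, where counting error alone is at most 6.24% of a value. Its mean over all libraries, 0.542 FPKM, was just above the filter of 0.5, which its si-*Fndc1* mean alone would have missed, and without any filter the adjusted p was 0.0148 (edgeR). The call held in all 19 alternative settings that gave it a value, with adjusted p from 0.000725 to 0.0403.

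*Mbnl2*, the paralog best known for splicing control in the brain and in muscle, did not pass. It was measured at 12.4, 12.1, 12.0, 12.3 and 11.6 FPKM in si-Control and at 12.8, 12.0, 12.4, 13.4 and 12.6 FPKM in si-*Fndc1*, in order of replicate number. The groups overlapped, and this was the steadiest gene of the family, with SDs of 2.69% and 4.24% of the mean. Its log2 fold change was 0.07 (95% interval -0.01 to 0.15, adjusted p = 0.148 by edgeR), which bounds any rise at about 1.11-fold in this fit, and after correction for GC content and length the estimate was -0.03.

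*Mbnl1*, the main muscleblind gene of skeletal muscle (chr3:60380251-60537171, plus strand), did not pass either, with libraries far apart inside each group. It was measured at 8.46, 14.2, 14.7, 8.90 and 9.14 FPKM in si-Control replicates 1 to 5 and at 9.91, 8.27, 8.08, 17.2 and 8.63 FPKM in si-*Fndc1* replicates 1 to 5. Replicates 2 and 3 of si-Control and replicate 4 of si-*Fndc1* were high, and the other 7 libraries lay together between 8.08 and 9.91 FPKM. The means, 11.1 ± 3.09 and 10.4 ± 3.85 FPKM, did not differ beyond this spread, with a log2 fold change of -0.08 (95% interval -0.61 to 0.45, edgeR adjusted p = 0.825). Without si-*Fndc1* replicate 4 the log2 fold change was -0.34, and without si-Control replicate 3 it was 0.04, neither past the threshold. Any change of *Mbnl1* within the 95% interval of the full fit was compatible with these libraries. The counts of *Mbnl1* ran from 10099 to 25688, so counting error was small beside the gap.

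The promoter windows of *Mbnl3* and *Mbnl2* are printed because these relatives differed in response, and that of *Celf2* because it is the other family member that fell. Each runs from 250 bases before to 50 bases after an annotated start in RefSeq (GRCm38.p6), 5′ to 3′ on the gene's strand, with E-boxes (CANNTG, the motif bound by MyoD family factors, whose consensus reads the same on both strands) in capitals.
Mbnl3, chrX:51205941-51206240, minus strand: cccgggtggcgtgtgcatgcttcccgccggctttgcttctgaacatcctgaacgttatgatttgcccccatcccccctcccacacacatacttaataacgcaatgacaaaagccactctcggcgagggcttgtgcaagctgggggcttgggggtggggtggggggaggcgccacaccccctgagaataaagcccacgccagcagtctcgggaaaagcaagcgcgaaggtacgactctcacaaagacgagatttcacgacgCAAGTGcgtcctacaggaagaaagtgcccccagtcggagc
Mbnl2, chr14:120275419-120275718, plus strand: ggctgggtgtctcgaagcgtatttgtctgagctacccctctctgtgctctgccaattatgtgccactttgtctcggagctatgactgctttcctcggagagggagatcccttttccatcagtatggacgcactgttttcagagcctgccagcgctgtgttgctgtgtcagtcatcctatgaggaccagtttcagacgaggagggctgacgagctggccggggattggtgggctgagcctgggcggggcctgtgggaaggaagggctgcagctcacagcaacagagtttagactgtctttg
Celf2, chr2:7396149-7396448, minus strand, the outermost of its starts: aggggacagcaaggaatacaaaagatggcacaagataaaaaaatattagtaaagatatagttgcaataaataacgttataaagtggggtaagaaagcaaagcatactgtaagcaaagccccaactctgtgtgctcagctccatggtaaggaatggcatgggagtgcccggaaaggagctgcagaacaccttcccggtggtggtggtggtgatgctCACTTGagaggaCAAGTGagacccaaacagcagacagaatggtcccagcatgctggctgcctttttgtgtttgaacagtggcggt
The *Mbnl3* window holds 1 E-box, 10 bases after the start, the *Mbnl2* window none, and the *Celf2* window 2. E-boxes were not confined to regulators that fell. Among those that did not pass, the *Rbm24* window held 2 and the *Ptbp1* window 3. *Mbnl1* had a window with 2 and *Rbfox1* a window with 3, while their other windows and that of *Celf1* held none. Of the 14 windows found for 8 of the 10 regulators, 9 held an E-box, against 72.3% of 32851 promoters of this length. *Celf2* has more of these windows than any other regulator, and its window at chr2:6871986-6872285 held none. Its window at chr2:7395951-7396250 overlaps the printed one and holds the same 2 E-boxes, so these count in both. The stricter E-box CAGCTG was in 2 of the 14 windows, 1 each of *Rbfox1* and *Ptbp1*, against 16.3% of promoters, and the TEAD motif CATTCCT was in 1, the *Celf2* window above, against 5.36%. These are matches of letters and were not measured as sites.

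Of the CELF genes, *Celf2* fell and *Celf1* did not pass the test. *Celf2* (ENSMUSG00000002107, chr2:6544505-7400811, minus strand), a regulator of exon use and of mRNA stability, was measured at 4.70, 4.09, 4.40, 4.43 and 4.70 FPKM in si-Control replicates 1 to 5. In si-*Fndc1* it was measured at 3.78, 4.24, 3.65, 3.27 and 3.57 FPKM. Replicates 1, 3, 4 and 5 of si-*Fndc1* lay below every si-Control library, and replicate 2 lay above si-Control replicate 2, so the groups overlapped by that pair. The mean fell from 4.46 ± 0.252 to 3.70 ± 0.351 FPKM (SD, n = 5 each), a log2 fold change of -0.26 (SE 0.07, 95% interval -0.41 to -0.12, edgeR adjusted p = 0.00995). The call held in all 19 alternatives that gave it a value, with adjusted p from 0.00136 to 0.0472.

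*Celf1*, the CELF gene most abundant in these cells and the one raised in myotonic dystrophy muscle, was measured at 18.4, 17.2, 15.8, 17.1 and 19.4 FPKM in si-Control. In si-*Fndc1* it was measured at 15.7, 20.2, 18.2, 14.9 and 16.1 FPKM. The groups overlapped throughout, and si-*Fndc1* held both the highest and the lowest library of the 10. The log2 fold change was -0.04 (95% interval -0.23 to 0.15, edgeR adjusted p = 0.771). The other CELF genes, *Celf3*, *Celf4*, *Celf5* and *Celf6*, were below the filter, with no library above 0.270 FPKM.

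Neither RBFOX gene passed the test, although *Rbfox2* had the highest fold change of the 10. *Rbfox2* (ENSMUSG00000033565, chr15:76963190-77191204, minus strand), which is needed for exon choices in myoblast fusion, was measured at 17.3, 16.7, 41.2, 45.1 and 18.4 FPKM in si-Control replicates 1 to 5. In si-*Fndc1* it was measured at 42.1, 43.1, 38.0, 40.6 and 38.0 FPKM. Replicates 1, 2 and 5 of si-Control were low, and replicates 3 and 4 of si-Control lay at the level of the si-*Fndc1* libraries, 1 of them above all 5. The 2 levels were 2.06-fold apart at their nearest libraries, while libraries inside a level differed by at most 1.19-fold. The means were 27.7 ± 14.1 and 40.4 ± 2.36 FPKM (SD, n = 5 each), a log2 fold change of 0.55 (SE 0.28, 95% interval -0.07 to 1.17, edgeR adjusted p = 0.157). The result turned on single libraries, since without si-Control replicate 4 the log2 fold change was 0.79 with an adjusted p of 0.0381, and with any other library left out it did not pass.

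Libraries at separate levels that cut across the groups were uncommon in the table. This was described after the values had been seen, as a gap of at least 1.5-fold between neighbouring libraries in order of level, with at least 2 libraries on each side and the gap wider than the spread inside either level, among tested genes with a mean count of at least 200. Of 11562 such genes, 180 (1.56%) fell at 2 levels that cut across the groups, and *Rbfox2* was the regulator among them. These 180 genes divided the libraries in 150 different ways, and no other gene divided all 10 as *Rbfox2* did. Within si-Control alone the same division did recur, among others in *Itgav*, an integrin alpha chain gene. *Itgav* was high in si-Control replicates 3 and 4, at 13.6 and 14.5 FPKM. It was low in replicates 1, 2 and 5, at 7.20, 6.75 and 7.07 FPKM, and in si-*Fndc1*, at 5.52 to 6.62 FPKM. With a gap of 1.3-fold the count was 287 genes and included *Mbnl1*, whose high libraries (si-Control 2 and 3, si-*Fndc1* 4) were not those of *Rbfox2*. *Raver1*, a PTB-interacting corepressor, divided the libraries otherwise again, with replicates 2 and 5 of si-*Fndc1* low at 7.27 and 7.20 FPKM, and there the overlapping gene *Gm38431* on the same strand had its 2 highest counts, 1054 and 782. Genes that overlap *Rbfox2* and *Mbnl1* had at most 358 and 155 counts in any library, against at least 10771 and 10099 for the regulators themselves. Whether the counts of those genes followed the levels of *Rbfox2* or *Mbnl1* was not tested. Which transcripts made up the high and low levels cannot be read from counts per gene.

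**Figure D3:**
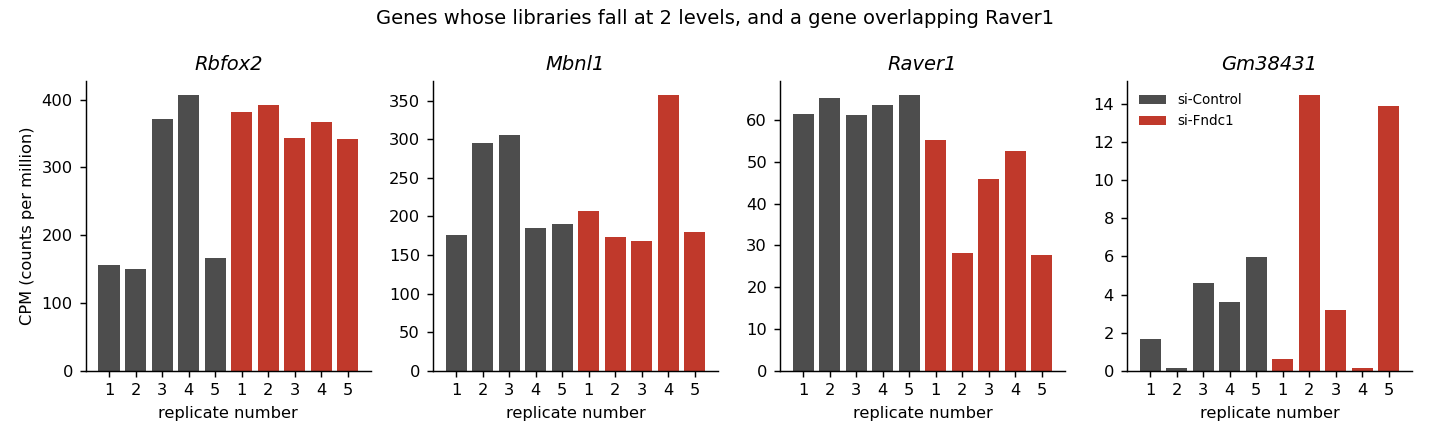
CPM (y axis, from 0, on a separate scale per gene) of *Rbfox2*, *Mbnl1*, *Raver1* and *Gm38431*, a gene that overlaps *Raver1*, in each of the 10 libraries by replicate number (si-Control grey, si-*Fndc1* red). The 7 high libraries of *Rbfox2* include si-Control 3 and 4, the 3 high libraries of *Mbnl1* are si-Control 2 and 3 and si-*Fndc1* 4, and *Gm38431* is highest where *Raver1* is lowest.

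*Rbfox1*, which is prominent in adult muscle, heart and neurons, was measured at 0.850, 0.590, 0.888, 0.870 and 0.802 FPKM in si-Control and at 0.713, 0.671, 0.639, 0.769 and 0.433 FPKM in si-*Fndc1*. The groups overlapped through si-Control replicate 2, the lowest of its group. The means were 0.800 ± 0.122 and 0.645 ± 0.128 FPKM, with a log2 fold change of -0.30 (95% interval -0.67 to 0.07, edgeR adjusted p = 0.193). With 121 to 318 counts per library, counting error reached 9.09% of a value. Any change inside the 95% interval was compatible with these libraries. *Rbfox3*, the neuronal member, had no count in any library.

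Of the remaining regulators, *Rbm20* fell by a small amount. *Rbm20* (ENSMUSG00000043639, chr19:53665737-53853811, plus strand) was measured at 14.8, 13.2, 14.3, 14.8 and 13.6 FPKM in si-Control and at 12.8, 13.0, 11.9, 12.8 and 12.5 FPKM in si-*Fndc1*. All 5 si-*Fndc1* libraries lay below all 5 si-Control libraries, although si-*Fndc1* replicate 2 and si-Control replicate 2 were close. The mean fell from 14.1 ± 0.738 to 12.6 ± 0.419 FPKM (SD, n = 5 each), a log2 fold change of -0.16 (SE 0.04, 95% interval -0.25 to -0.07, edgeR adjusted p = 0.0110). After correction for GC content and length the log2 fold change was -0.06 and no longer passed (edgeR adjusted p = 0.278).

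*Rbm24*, the most abundant of the 10 in FPKM, and *Ptbp1* did not pass the test, with narrow intervals around 0. *Rbm24* was measured at 33.0, 26.5, 29.2, 32.9 and 29.6 FPKM in si-Control and at 33.1, 33.9, 29.4, 30.1 and 25.3 FPKM in si-*Fndc1*. The groups overlapped, and the log2 fold change was 0.01 (95% interval -0.17 to 0.20, edgeR adjusted p = 0.924). *Ptbp1* was measured at 20.3, 18.8, 18.3, 19.4 and 19.4 FPKM in si-Control and at 19.6, 20.3, 18.5, 19.3 and 19.4 FPKM in si-*Fndc1*, the narrowest span of the 10 at 1.11-fold from lowest to highest. Its log2 fold change was 0.02 (95% interval -0.06 to 0.10, edgeR adjusted p = 0.723). After correction for GC content and length it was 0.12 and passed (edgeR adjusted p = 0.0352). The gene *Plppr3*, which overlaps *Ptbp1* on the other strand, had 893 to 1467 counts per library against 5755 to 8151 for *Ptbp1*, and whether counting used strand is not given in the sources used here.

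GC content moved with the fold changes across the whole table. Over 11185 genes with a GC value, the log2 fold change and the GC content of the gene's transcript had a Spearman correlation of -0.52, across genes that share the same 10 libraries and are not independent, and of -0.01 after the correction. *Mbnl1*, *Mbnl2*, *Mbnl3* and *Celf2* are low in GC (39.2%, 40.4%, 39.8% and 42.1%), which places them at or below percentile 9.89 of these genes, whereas *Rbm20* at 52.4% and *Ptbp1* at 53.7% lie above the middle. Length moved with the fold changes too, though less. The log2 fold change and the implied length had a Spearman correlation of -0.20, and of 0.03 after the correction. Correction moved the log2 fold change of *Mbnl3* from -0.44 to -0.59 and that of *Celf2* from -0.26 to -0.19, both still past the threshold. The implied length was 9.76 kb for *Mbnl3* and 28.8 kb for *Celf2*. The separate parts of GC content and length in these moves were not tested.

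The balance inside the families was compared as the ratio of FPKM of 2 relatives in the same library, which is free of library scaling. *Mbnl2* over *Mbnl3* was 21.0, 17.6, 21.0, 19.6 and 17.9 in si-Control and 24.3, 32.1, 27.6, 28.3 and 26.7 in si-*Fndc1*. Every si-*Fndc1* library was above every si-Control library, a 1.43-fold shift (two-sided exact permutation p = 0.00794, the smallest that 5 against 5 allows, adjusted p = 0.0198 over 5 ratios). Since *Mbnl2* moved little (log2 fold change 0.07), this ratio mostly repeats the fall of *Mbnl3* and is not separate evidence for it. *Mbnl3* met the 0.5 FPKM minimum over all libraries (0.542), but its si-*Fndc1* mean alone (0.458 FPKM) would not have. *Mbnl3* made up 2.10% to 3.03% of the summed MBNL FPKM in si-Control against 1.53% to 2.27% in si-*Fndc1*, so in both groups it was a minor part of the family.

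*Celf1* over *Celf2* was 3.92, 4.19, 3.60, 3.87 and 4.13 in si-Control and 4.16, 4.78, 4.98, 4.56 and 4.51 in si-*Fndc1*. Replicates 2 to 5 of si-*Fndc1* were above every si-Control library, a 1.17-fold shift (two-sided exact permutation p = 0.0159, adjusted p = 0.0265). As *Celf1* moved little (log2 fold change -0.04), this ratio too mostly repeats the fall of its relative, *Celf2*. After correction for GC content and length the log2 shift was 0.14 in place of 0.22, with an adjusted exact p of 0.0529, and the same adjusted exact p was reached without si-*Fndc1* replicate 2 or 3. *Rbfox1* over *Rbfox2* ran from 0.0193 to 0.0492 in si-Control and from 0.0114 to 0.0190 in si-*Fndc1*, without overlap (two-sided exact permutation p = 0.00794, adjusted p = 0.0198). Without si-*Fndc1* replicate 1, 2, 3 or 5 the adjusted exact p of *Rbfox1* over *Rbfox2* was 0.0529. The si-Control ratios fell at separate levels as *Rbfox2* itself did, with the libraries where *Rbfox2* was high, 0.0216 and 0.0193, close to the si-*Fndc1* range. *Mbnl1* over *Mbnl2* and *Mbnl1* over *Mbnl3* overlapped between the groups, with adjusted exact permutation p of 0.492 and 0.308.

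**Figure D4:**
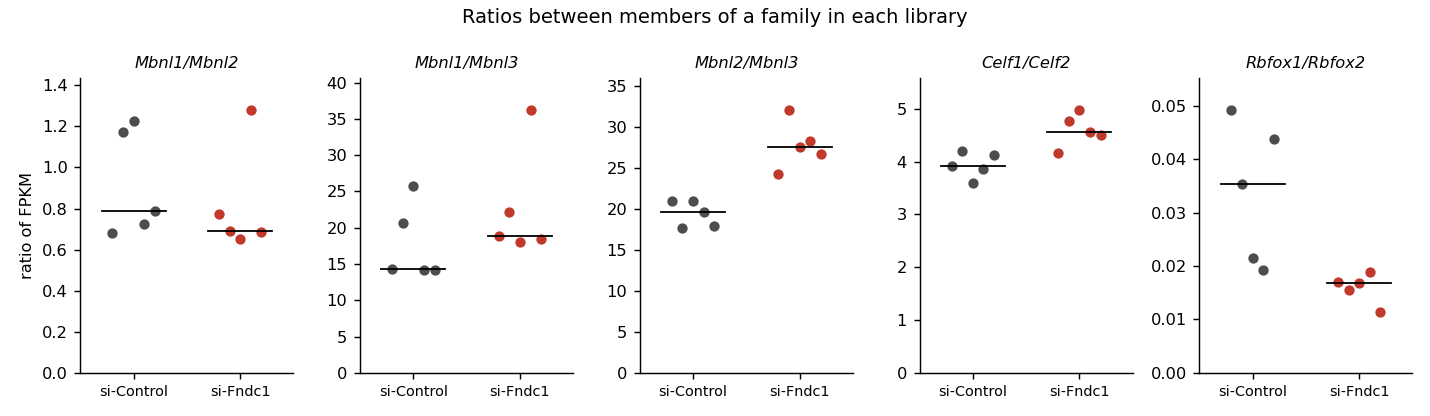
Ratio of FPKM between relatives in each library (y axis, from 0, on a separate scale per ratio) in si-Control (grey) and si-*Fndc1* (red), with the median of each group of 5 as a line. The groups separate for *Mbnl2*/*Mbnl3* (17.6 to 21.0 against 24.3 to 32.1) and *Rbfox1*/*Rbfox2*, and overlap for the other 3 ratios.

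Other splicing regulators were read from a list of 31 genes, of which 18 passed the filter. Of these 18, 2 rose, 4 fell and 12 did not pass the test. The share called, 33.3%, was close to the 34.4% of all genes tested. The median log2 fold change of the 18 was 0.04, against 0.00 over all genes tested. *Rbm10* fell from 11.1 ± 0.227 to 8.70 ± 0.279 FPKM (SD, n = 5 each), a log2 fold change of -0.34 (edgeR adjusted p = 0.000105). *Rbm4*, a regulator that antagonises PTB on muscle exons, fell from 3.43 ± 0.213 to 2.51 ± 0.250 FPKM, a log2 fold change of -0.44 (edgeR adjusted p = 0.00132). *Rbm10* kept its call in all 20 alternatives. *Rbm4* kept its call in the 17 that gave it a value. The correction for GC content and length was not among those 17, so *Rbm4* was not tested under it. *Rbm38*, the closest relative of *Rbm24*, fell from 16.3 ± 2.53 to 10.6 ± 2.13 FPKM, a log2 fold change of -0.60 (edgeR adjusted p = 0.0101), while *Rbm24* itself did not pass. The call on *Rbm38* was lost after correction for GC content and length (log2 fold change -0.40, edgeR adjusted p = 0.0888). *Raver1* had a log2 fold change of -0.59 (edgeR adjusted p = 0.0310), with replicates 1, 3 and 4 of si-*Fndc1*, at 14.3, 11.9 and 13.6 FPKM, also below the si-Control minimum of 15.9. Its call was lost in 10 of 20 alternatives, with adjusted p up to 0.134 (edgeR), and without si-*Fndc1* replicate 2 or 5 the log2 fold change was -0.48 or -0.47 (edgeR adjusted p = 0.0501 and 0.0529). The rises were small, 0.14 for *Elavl1* and 0.10 for *Rbms1* on the log2 scale (edgeR adjusted p = 0.0226 and 0.0252), and both lost their calls in several alternatives, among them the correction for GC content and length, after which *Rbms1* was at -0.04 (edgeR adjusted p = 0.371). Of the relatives of *Ptbp1*, *Ptbp2* had a log2 fold change of 0.15 (edgeR adjusted p = 0.0627) and *Ptbp3* of 0.05 (adjusted p = 0.358). *Ptbp2* passed under upper quartile scaling (0.17, edgeR adjusted p = 0.0336), and *Ptbp3* passed as lower after correction for GC content and length (-0.14, edgeR adjusted p = 0.0353).

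Genes whose exons are known to be chosen by these regulators in muscle were read from a list of 34, of which 30 passed the filter. Of these 30, 3 rose, 14 fell and 13 did not pass the test, so 56.7% were called against 34.4% of all genes tested, with a median log2 fold change of -0.15. *Nfix*, a transcription factor of fetal muscle, fell from 61.7 ± 5.87 to 37.2 ± 3.17 FPKM, a log2 fold change of -0.72 (SD, n = 5 each, edgeR adjusted p = 7.32e-05). The non-muscle actin cross-linkers *Actn4* and *Actn1* fell, with log2 fold changes of -0.27 and -0.22 (edgeR adjusted p = 8.37e-05 and 0.000843). *Tpm2*, a muscle tropomyosin, rose by 0.33 on the log2 scale, *Itgb1*, the common integrin beta chain, by 0.21, and *Fxr1*, an RNA-binding protein of muscle, by 0.18 (edgeR adjusted p = 0.00142, 0.0139 and 0.000798). After correction for GC content and length the calls on *Itgb1* and *Fxr1* were lost (edgeR adjusted p = 0.421 and 0.169), and 9 of the 30 genes (30%) were called in place of 17, against 22.7% of the 11185 genes in that fit. *Ttn*, the gene of titin and the best known target of RBM20, and *Neb*, the gene of nebulin, fell by 0.45 and 0.44 on the log2 scale (edgeR adjusted p = 0.00624 and 0.00705). Both were chosen after their values had been seen. After correction for GC content and length *Ttn* was at 0.07 and did not pass (edgeR adjusted p = 0.477), while *Neb* was at -0.24 (edgeR adjusted p = 0.0341). These are levels of whole genes, and exon use was not measured.

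Of the 13 myotube markers, 5 rose, 1 fell and 7 did not pass the test, and 9 had a higher mean in si-*Fndc1*. The share called was 46.2%, against 34.4% of all genes tested. *Myog*, the myogenin gene, averaged 254 ± 10.9 FPKM in si-Control and 233 ± 18.4 FPKM in si-*Fndc1*, with a log2 fold change of -0.12 (edgeR adjusted p = 0.137). After correction for GC content and length *Myog* passed as lower (-0.18, edgeR adjusted p = 0.0217), as it did without si-*Fndc1* replicate 4 (-0.16, edgeR adjusted p = 0.0233). *Myh3*, embryonic myosin, had a log2 fold change of -0.17 (edgeR adjusted p = 0.166), *Ckm*, muscle creatine kinase, rose by 0.39 (adjusted p = 0.000201), and *Mki67*, a proliferation marker, had -0.10 (adjusted p = 0.277). Of the 8 markers of undifferentiated or cycling myoblasts, 1 rose and 7 did not pass, so 12.5% were called.

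**Figure D5:**
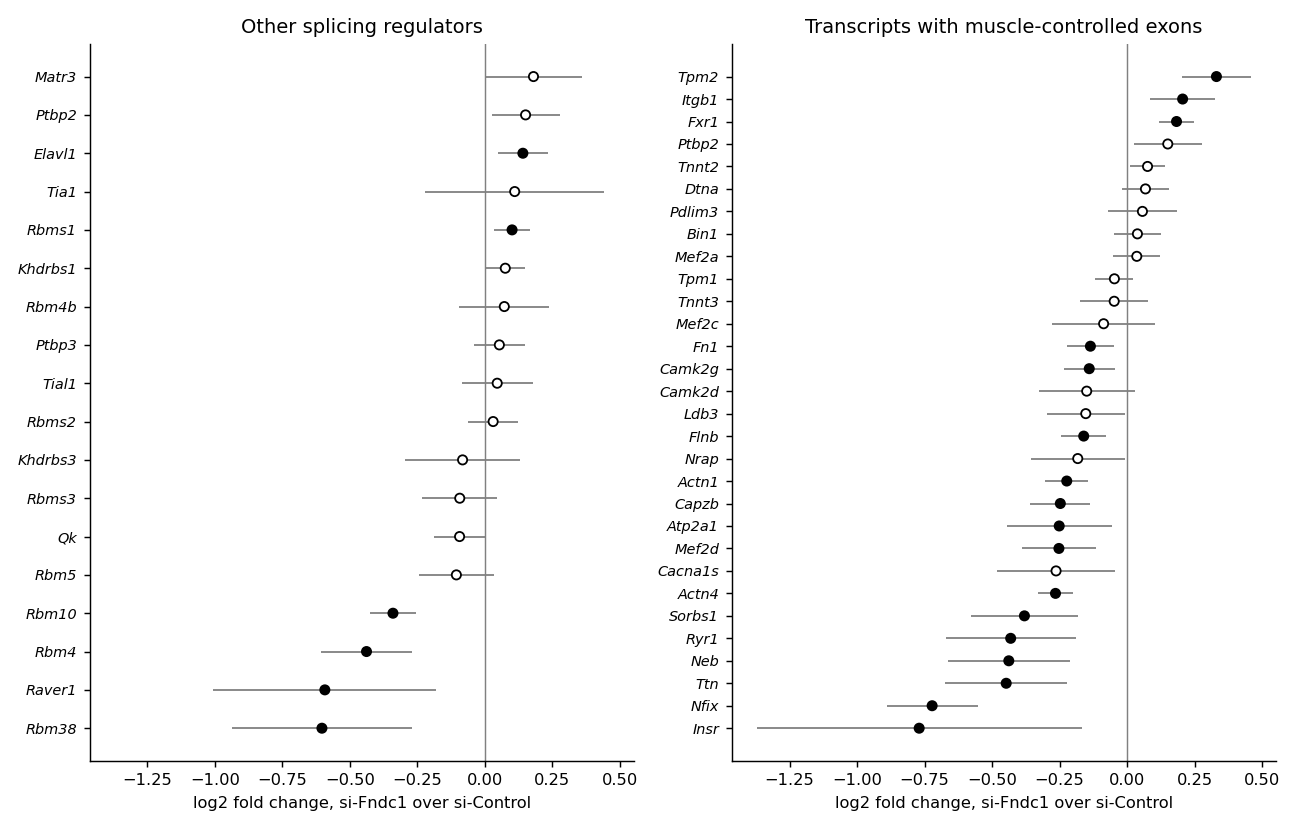
Log2 fold change, si-*Fndc1* over si-Control (x axis), with 95% intervals, for the 18 other splicing regulators and the 30 transcripts with muscle-controlled exons that passed the filter, filled where the edgeR adjusted p is under 0.05. On the left 4 genes fall and 2 rise past the threshold, and on the right 14 fall and 3 rise.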

How the data were processed

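Poly(A) RNA libraries of C2C12 cells were sequenced by the authors, 5 of si-Control and 5 of si-*Fndc1*, grouped here by the sample labels. The deposited table holds raw counts per gene and FPKM values that the authors computed from them, with an entry of 0.0001 FPKM at a count of 0. The aligner and build are given differently in the paper, the design text and the processing notes, which list cutadapt 1.9, FastQC and GRCm39, and the design text also gives an earlier harvest than the labels. Strand use in counting is not given in the sources used here.

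Counts were fitted with edgeR 4.0.16 (TMM, glmQLFit and glmQLFTest, 5 against 5, no covariate) for the 13548 genes with a mean of at least 0.5 FPKM, and adjusted by Benjamini-Hochberg, with calls at an adjusted p under 0.05. SEs and 95% intervals were derived from the F statistic. The fit was tested on simulated counts. Ratios of FPKM were compared by two-sided exact permutation tests. Alternatives were DESeq2 1.42.0, limma 3.58.1 on log2(FPKM + 1) and log2(FPKM + 0.1), upper quartile scaling, other filters, a replicate block, an offset for GC content and length (5-df spline, GENCODE vM1 transcripts), removal of the liver list, and each library left out. Replicates of a group differed by more than sampling noise (chi-square divided by its degrees of freedom 35.8 to 67.8, 20 pairs, 15216 genes). Counting errors given in percent cover counting alone, whereas the 95% intervals from edgeR include the spread between libraries.

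The members and gene lists were chosen with earlier results of these data known. Named were all 10 regulators, *Fndc1*, the listed paralogs, the 5 genes of smallest p in each list, *Itgb1*, *Myog*, *Myh3*, *Ckm* and *Mki67*. *Raver1*, *Ttn*, *Neb*, *Itgav*, *Gm38431*, *Plppr3* and the description of genes at 2 levels were added after values were seen. Markers of neurons were also listed: 3 of 10 passed the filter, *Rbfox3*, *Snap25* and *Gad1* had no count, and the summed level was 124 to 134 CPM in si-Control and 135 to 156 CPM in si-*Fndc1*.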

Additional observations from a re-analysis of the deposited data

Results flagged for a closer look

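Of 34 groups of 5 libraries examined for a library far from the others by Dixon's criterion, 5 were picked out, where chance would pick about 1 in 20. *Mbnl1* was highest in si-*Fndc1* replicate 4, at 17.2 FPKM, and through it the ratios *Mbnl1* over *Mbnl2* (1.28) and *Mbnl1* over *Mbnl3* (36.2) were also highest there, so these flags share 1 value. *Rbfox1* was lowest of its group in si-Control replicate 2, at 0.590 FPKM, from 207 counts. The total count of si-*Fndc1* replicate 5, 56332844, lay below those of its group. The values of *Rbfox2* in si-Control, split 3 against 2, are not of the kind this criterion picks out.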

How the results depend on the processing

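Of 691 planned values recomputed under the alternatives, 631 were scored as kept. For fold changes and ratios this meant the same direction and the same side of the threshold. The tally leaves out what was added after values were seen, among it *Raver1*, *Ttn* and *Neb*. Of 20 alternatives for each of these genes, 10 were kept for *Raver1*, 18 for *Ttn* and 19 for *Neb*. Counts of called genes were scored as kept when they stayed within a set factor of the main count. *Mbnl3* and *Celf2* kept their calls in every alternative that tested them. They were not tested at a mean of at least 5 FPKM, where 1 regulator was called, *Rbm20*. Correction for GC content and length, which also left fewer genes to test, gave 2536 genes called (4244 without the correction on those 11185 genes), 9 transcripts with muscle-controlled exons, and log2 values of -0.027 for *Mbnl2*, -0.14 for *Ptbp3*, -0.042 for *Rbms1*, 0.069 for *Ttn* and 0.14 for *Celf1* over *Celf2*. With the correction and the replicate block together, the counts were 1645 genes, 7 transcripts and 2 other splicing regulators, and those log2 values were -0.028, -0.14, -0.042 and 0.070. Without a filter on low values, 3 other splicing regulators were called. The cause of these moves was not tested.

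Numbers did not pair the libraries: the deviations of same-numbered libraries correlated at -0.06 to 0.06, and 1 of 5 si-Control libraries correlated best with its own number. In the replicate block, the ratios *Mbnl2* over *Mbnl3* (0.52), *Celf1* over *Celf2* (0.22) and *Rbfox1* over *Rbfox2* (-1.01, all log2) had an adjusted exact p of 0.104, since 5 pairs cannot give less than 0.0625 unadjusted.

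Leaving out 1 library at a time gave 4016 to 4626 genes, 3 to 4 regulators, 4 to 6 other splicing regulators and 13 to 19 transcripts called. The log2 fold change ran from -0.34 to 0.040 for *Mbnl1*, -0.11 to 0.0071 for *Celf1*, -0.033 to 0.077 for *Rbm24* and -0.00072 to 0.040 for *Ptbp1*, and the log2 ratio from 0.46 to 0.56 for *Mbnl2* over *Mbnl3*, 0.19 to 0.26 for *Celf1* over *Celf2* and -1.19 to -0.85 for *Rbfox1* over *Rbfox2*, whose call was lost without si-*Fndc1* replicate 1, 2, 3 or 5, as that of *Celf1* over *Celf2* was without replicate 2 or 3. Levels and gene totals were recomputed with choices made after seeing the data: 85 genes fell at 2 levels with a gap of at least 2-fold, and 115 with a mean count of at least 1000.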
